A study of Mus musculus with 6 samples.

Results

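The 9 genes described here make and receive the Hedgehog signal: the ligand genes Shh, Ihh and Dhh, the receptor and transducer genes Ptch1 and Smo, the transcription factor genes Gli1, Gli2 and Gli3, and Hhip, which encodes a ligand-binding inhibitor. They were taken by symbol, and all 9 had a row among the 54735 gene symbols counted. The RNA came from whole pancreas of e16.5 mouse embryos on a mixed C57Bl6/129SV background. The control group held 3 samples with the genotype Neurog3:cre, and the RARdn group held 3 samples with Neurog3:cre;RARdnfl/fl. All 6 samples therefore carried the cre driver of Neurog3, a gene of endocrine progenitors, and the groups differed in the RARdnfl/fl allele, an abbreviation that the labels do not spell out. The driver addresses endocrine progenitors only, whereas the counts add up every cell of the organ. By its title, the study is about retinoic acid signalling in these progenitors and the making of islet cells.

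Hedgehog ligands bind Ptch1, which otherwise holds Smo inactive. Freed Smo acts at the primary cilium and turns Gli2 and Gli3 from repressors into activators, and Gli1, Ptch1 and Hhip are themselves textbook targets of the activated pathway. In the embryonic gut tube the epithelium makes the ligand and the mesenchyme responds, and early pancreatic epithelium is known for excluding Shh while the neighbouring stomach and duodenum express it. In embryonic pancreas, Gli genes and Ptch1 are known mainly from the mesenchyme.

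Libraries held 35256531 to 52015498 counts in genes. At least 1 count was found for 27828 to 28517 genes in controls and for 23995 to 27147 genes in RARdn libraries. Reads assigned to no gene feature were 7.60% to 8.99% of all reads in controls and 2.90% to 5.30% in RARdn libraries. The part of these differences in the Hedgehog values was not tested. Levels are given as CPM, read counts relative to library size after TMM scaling. Xist reads were high in control 1 and 3 (44355 and 48274 counts) and at 6 to 14 counts in the other libraries, so the sexes were not balanced. Ribosomal RNA genes took 1.06% to 1.12% of counts in controls and 0.116% to 0.196% in RARdn libraries. The summed level of 19 mesenchyme markers, led by Col3a1 and Col1a1, was 6441 to 8636 CPM in controls and 10405 to 11711 CPM in RARdn libraries. That of 10 smooth muscle and pericyte markers, led by Rgs5 and Acta2, was 155 to 227 and 284 to 460 CPM. The liver list, led by Ttr and Alb, was at 380 to 409 and 449 to 1508 CPM, with Alb at a mean of 1.82 CPM in controls and 246 CPM in RARdn libraries. The acinar list, led by Ctrb1 and Cpa1, was at 109820 to 121447 CPM in controls and at 35436, 132141 and 188032 CPM in RARdn 1, 2 and 3, so acinar markers of the labelled tissue were high in every library. Lists for duct (led by Spp1 and Muc1), endocrine cells (Ins2 and Gcg), endothelium (Cdh5 and Pecam1), blood and immune cells (Hbb-bs and Hba-a1), mesothelium (Krt19 and Upk3b) and spleen (Nkx2-3 and Cxcl13) overlapped between the groups. So did the neuron list, led by Ret and Stmn2, in which Ret was at 139 CPM in controls and 61.2 CPM in RARdn libraries while 6 of 7 markers were above 0 with a median log2 fold change of 0.997. Fewer cells of a type and less RNA per cell cannot be told apart in whole tissue.

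Across all genes, 19070 passed the filter on low counts and 767 of them, 4.02%, were called at an adjusted p under 0.05 by edgeR's quasi-likelihood test: 262 (1.37%) higher and 505 (2.65%) lower in RARdn pancreas. Of the 9 Hedgehog genes 7 were tested, and Shh and Ihh had too few counts. Among the 7, 1 was called higher (Smo) and none lower, and 3 had an unadjusted p under 0.05 (22.2% of all tested genes did). DESeq2 and limma-voom each called 2, Smo and Gli1. Over all 19070 tested genes DESeq2 called 1946 and limma-voom called 796, in either direction. The median log2 fold change of the 7 was 0.19, against 0.0005 over all genes. Every RARdn library lay above every control for Smo and Gli1, a separation that 13.9% of all tested genes showed upward and 13.7% downward.

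**Figure D1:**
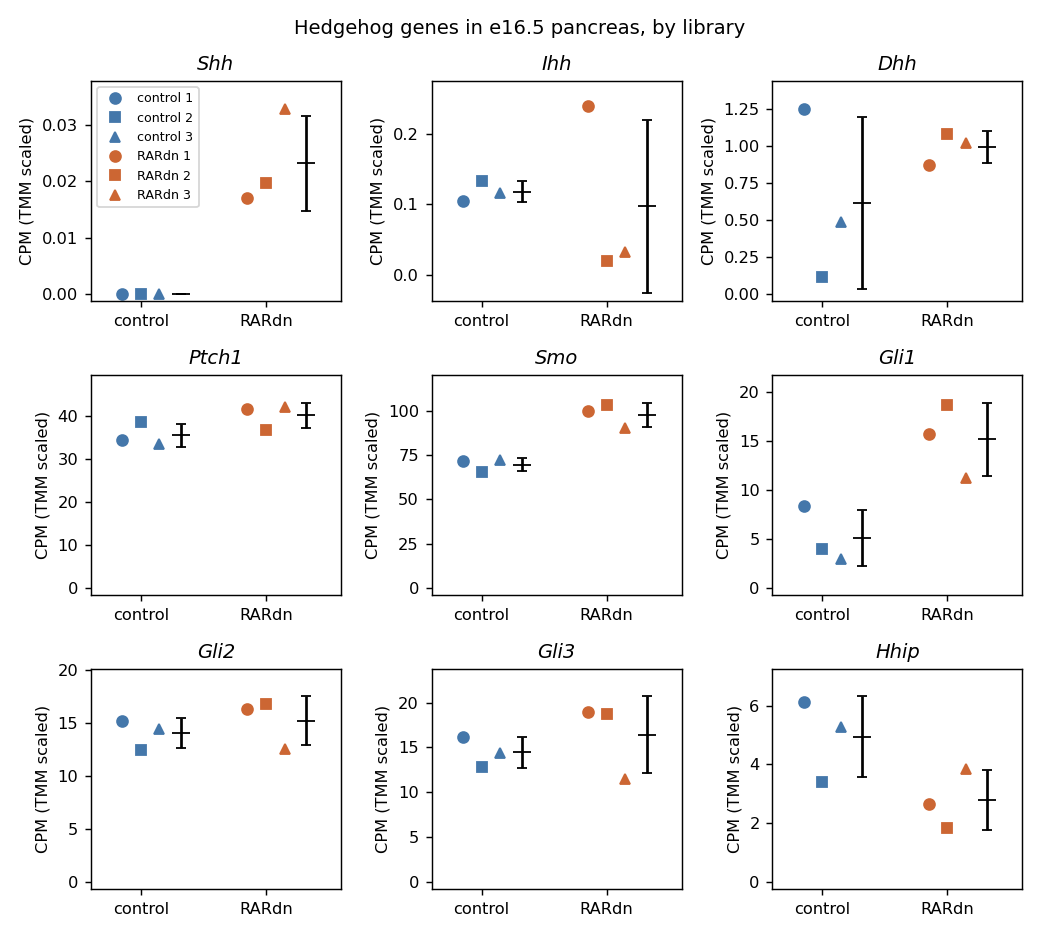
Level of each Hedgehog gene (CPM after TMM scaling, linear axes that start below 0) in the 3 control and 3 RARdn libraries. Symbols are libraries, and the bar beside each group is its mean with 1 SD. Smo and Gli1 are higher in every RARdn library than in any control, Hhip is mostly lower, and Ptch1, Gli2 and Gli3 overlap.

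The ligand genes were hardly transcribed in this tissue. Shh (chromosome 5, 28456815 to 28467256, GRCm38) had 0 counts in each control and 1 count in each RARdn library. Those values lie under the 3 counts that a count of 0 allows, 0.0577 to 0.0851 CPM before scaling, so no difference in Shh was detectable at this depth. Ihh (chromosome 1, 74945315 to 74951672), known from gut epithelium and growing bone, had 4, 6 and 5 counts in the controls, against 14, 1 and 1 in the RARdn libraries. The highest and the lowest Ihh values thus both came from RARdn libraries (0.104 to 0.134 CPM in controls, 0.0197 to 0.239 CPM in RARdn; 2-sided exact permutation p = 1, the smallest possible being 0.1).

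Dhh (chromosome 15, 98891152 to 98898540), the ligand made by Schwann cells and Sertoli cells, was the most abundant of the 3 in 5 of 6 libraries. Its counts were 48, 5 and 21 in the controls (1.25, 0.111 and 0.486 CPM), against 51, 55 and 31 in the RARdn libraries (0.872, 1.08 and 1.02 CPM). The controls spanned a range that contained all RARdn values, and the difference did not pass (log2 fold change 0.70, 95% interval -0.79 to 2.19, edgeR adjusted p = 0.573). It moved with single controls, being 0.19 without control 2, 1.73 without control 1 and 3.12 (adjusted p = 0.206) with a term for high Xist, none of them called. Markers of Schwann cells and neural crest, led by Erbb3 and Ngfr, summed to 75.8 to 88.5 CPM in controls and 93.2 to 133 CPM in RARdn libraries. Of these 8 markers 1 was called higher, the neurotrophin receptor gene Ngfr (log2 1.74, adjusted p = 0.00383), and 7 of 8 were above 0 with a median of 1.03. In 5 of them every RARdn library lay above every control. Over all tested genes 13.9% showed that separation and 1.37% were called higher. Erbb3, which makes up most of the sum, was at -0.06. The part of these cells in the Dhh values was not tested. Exons of Dhh overlap those of Rhebl1 and Gm49442 in GENCODE, and those of Shh overlap 2 genes on the other strand.

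Markers of neighbouring gut, whose epithelium is a known source of Shh and Ihh, were read too. Of 10 gut epithelium markers, Cdx2, Cdx1 and Phgr1 were at 3 counts or fewer in every library. Fabp1, a fatty acid binding protein gene of enterocytes, had 2, 2 and 0 counts in controls and 268, 35 and 0 in RARdn libraries. In RARdn 1, the library with 14 Ihh counts, Fabp2 had 17 counts and Olfm4 294, against at most 4 and 102 in controls. Cdh17 had 32 counts there, against 3 to 16 in controls. Scaled, it was at 0.547, 0.454 and 0.230 CPM in RARdn 1 to 3, against 0.0695 to 0.418 CPM in controls. Other gut markers were lower in RARdn 1. Vil1 was at 27.3 CPM, against 48.6 to 60.2 CPM in controls, and Muc2 had 4 counts, against 14 to 37. The liver list was also highest in RARdn 1, at 1508 CPM against 380 to 409 CPM in controls. The part of gut cells in the Ihh values was not tested. The summed list, which is mostly Vil1 followed by Lgals4, was at 55.3 to 65.5 CPM in controls and 34.5 to 57.3 CPM in RARdn libraries. Of 8 stomach markers, Gkn1, Gkn2 and Tff1 were at 3 counts or fewer throughout, and the list, led by Tff2 and Barx1, summed to 33.0 to 68.7 and 36.1 to 86.3 CPM. Both sums overlapped between the groups.

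Smo, the membrane protein that carries the signal into the cell (chromosome 6, 29735503 to 29761365), was the called gene. It was at 71.6, 65.2 and 72.2 CPM in controls 1 to 3, against 99.7, 104 and 90.1 CPM in RARdn 1 to 3. All RARdn libraries lay above all controls, with group means of 69.7 ± 3.86 and 97.8 ± 6.94 CPM (SD, n = 3). Smo rose 1.40-fold (log2 0.49, SE 0.099, edgeR adjusted p = 0.0354). Leaving out control 1, control 2, control 3 or RARdn 2 ended the call (adjusted p = 0.0856, 0.207, 0.110 and 0.0927), with log2 fold changes between 0.44 and 0.52. It stayed without RARdn 1 (log2 0.50, adjusted p = 0.0439) or RARdn 3 (0.55, 0.0140). With a term for high Xist the log2 fold change was 0.58 (adjusted p = 0.266). Only control 2 is a control without high Xist, so in every fit with that term the genotype difference rests on this 1 control. Across the 20 alternative fits Smo was called in 9. Its call also ended with a filter of at least 1 CPM in 3 libraries, the replicate block, protein-coding genes alone or no TMM. The Smo call ended as well with the libraries scaled to the mesenchyme markers, where Smo stood at -0.08 and the median of all genes at -0.57. The mesenchyme list was higher in all RARdn libraries as well, with 17 of its 19 genes above 0, 1 of them called (Lum, log2 1.07), and a median of 0.42. Over all genes 9543 of 19070 were above 0 and 1.37% were called higher. In 9 of the 19 every RARdn library lay above every control, as in 13.9% of all tested genes. The part of the marker, Xist and ribosomal RNA differences in the Smo values was not tested.

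Ptch1, the receptor that holds Smo inactive and a target of its own pathway (chromosome 13, 63508328 to 63573598), was not called. It was at 34.4, 38.7 and 33.5 CPM in controls 1 to 3, against 41.6, 36.8 and 42.2 CPM in RARdn 1 to 3. RARdn 2 lay below control 2, so the groups overlapped (log2 0.18, SE 0.10, edgeR adjusted p = 0.345). The 95% interval of the difference was -0.06 to 0.41 on the log2 scale.

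The bases before the starts of Smo, Ptch1 and Hhip are shown because Smo was the called gene and Ptch1 and Hhip are textbook Gli targets. Each run is the 250 bases before a RefSeq start (GRCm38.p6), 5′ to 3′ on the gene's strand, with GC boxes (GGGCGG on either strand) in capitals: Smo at chr6:29735247-29735496 (plus strand), Ptch1 at chr13:63565736-63565985 (minus strand, a start inside the GENCODE gene) and Hhip at chr8:80058009-80058258 (minus strand).
Smo: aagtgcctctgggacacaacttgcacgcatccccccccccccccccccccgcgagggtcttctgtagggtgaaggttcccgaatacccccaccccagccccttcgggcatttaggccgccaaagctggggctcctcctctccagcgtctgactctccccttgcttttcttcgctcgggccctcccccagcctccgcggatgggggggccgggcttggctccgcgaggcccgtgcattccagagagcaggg
Ptch1: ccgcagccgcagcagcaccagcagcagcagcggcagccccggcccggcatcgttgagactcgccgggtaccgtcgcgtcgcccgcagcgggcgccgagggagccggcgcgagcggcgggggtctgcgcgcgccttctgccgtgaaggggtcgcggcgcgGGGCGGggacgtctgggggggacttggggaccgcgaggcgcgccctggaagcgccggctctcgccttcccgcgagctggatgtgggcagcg
Hhip: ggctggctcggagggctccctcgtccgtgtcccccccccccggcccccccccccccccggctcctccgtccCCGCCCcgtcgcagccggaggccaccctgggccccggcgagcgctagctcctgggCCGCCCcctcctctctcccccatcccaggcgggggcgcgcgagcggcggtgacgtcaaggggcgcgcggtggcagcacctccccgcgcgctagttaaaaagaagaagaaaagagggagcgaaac

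RefSeq starts were matched for 7 of the 9 genes, all but Shh and Gli1. The GLI motif GACCACCCA was searched on both strands and found in none of the 7, nor was it found with 1 mismatch allowed. Among 32851 promoters of this length 0.225% held the motif and 5.79% held it with up to 1 mismatch. The half-site AGGTCA of retinoid receptors was in none of the 7 either, against 14.02% of all promoters, and was searched separately from its paired forms with spacings of 2 and 5 bases, which 3 promoters each held. A GC box was in 6 of the 7, Smo being without one, against 32.7% of all promoters. The 7 stretches were rich in G and C, from 59.6% in Dhh to 78.4% in Ptch1, where the median of all promoters was 52.4%. These windows say nothing of sites farther away.

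Gli1, the Gli gene that pathway activity switches on (chromosome 10, 127329882 to 127341974), had the largest fold among the 7 tested. It was at 8.33, 3.94 and 2.92 CPM in controls 1 to 3, against 15.7, 18.6 and 11.2 CPM in RARdn 1 to 3. Every RARdn library lay above every control, but the controls differed among themselves, with control 1 well above the other two. The fitted difference was 3.01-fold (log2 1.59, SE 0.37, 95% interval 0.76 to 2.42), and it missed the threshold with an edgeR adjusted p of 0.0506 (unadjusted 0.00206). Across the 20 alternatives Gli1 was above 0 in all 20 (log2 1.07 to 2.15) and called in 9, among them DESeq2 (adjusted p = 0.000242), limma-voom (0.0296), RLE scaling (0.0481), scaling to the mesenchyme markers (0.00394) and the fit without control 1 (0.0227). It was not called without control 2 (log2 1.44, adjusted p = 0.183), control 3 (1.32, 0.133), RARdn 1 (1.59, 0.0590) or RARdn 2 (1.42, 0.138), or with the Xist term (1.95, 0.266). Exons of Gli1 overlap those of Arhgap9 and Gm47200 on the other strand over 327 bases, and since the strand setting of the counting is not given, reads there cannot be told apart.

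Gli2 and Gli3, the Gli genes that receive the signal from Smo, were not called. Gli2 (chromosome 1, 118834132 to 119053619) was at 15.2, 12.5 and 14.4 CPM in controls 1 to 3, against 16.3, 16.7 and 12.5 CPM in RARdn 1 to 3. Gli3 (chromosome 13, 15463235 to 15730026), the main repressor, was at 16.1, 12.7 and 14.4 CPM and at 19.0, 18.7 and 11.4 CPM. RARdn 3 fell within or below the controls for both genes while RARdn 1 and 2 lay above them. The log2 fold changes were 0.12 (95% interval -0.22 to 0.46, edgeR adjusted p = 0.689) and 0.19 (-0.27 to 0.65, adjusted p = 0.625). Both turned below 0 with scaling to the mesenchyme markers (-0.44 and -0.37), as did Ptch1 (-0.40), where the median of all genes was -0.57. None of the 3 was called in any of 20 alternatives.

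Hhip, which binds ligand at the cell surface and so limits signalling (chromosome 8, 79965851 to 80058006), pointed the other way from Gli1. It was at 6.11, 3.41 and 5.28 CPM in controls 1 to 3, against 2.63, 1.83 and 3.85 CPM in RARdn 1 to 3. RARdn 3 lay above control 2, and the remaining values kept apart. The difference did not pass (log2 -0.84, SE 0.32, 95% interval -1.57 to -0.12, edgeR adjusted p = 0.168). It passed without RARdn 3 (log2 -1.13, adjusted p = 0.0453) and with scaling to the mesenchyme markers (-1.36, 0.00136). That scaling by its construction moved the median of all genes to -0.57 and called 8798 of 19070 genes lower, so passing under it adds little. With the Xist term it was -0.31 (adjusted p = 0.852), and with control 2 as the only control beside the 3 RARdn libraries it was -0.30 (0.927).

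**Figure D2:**
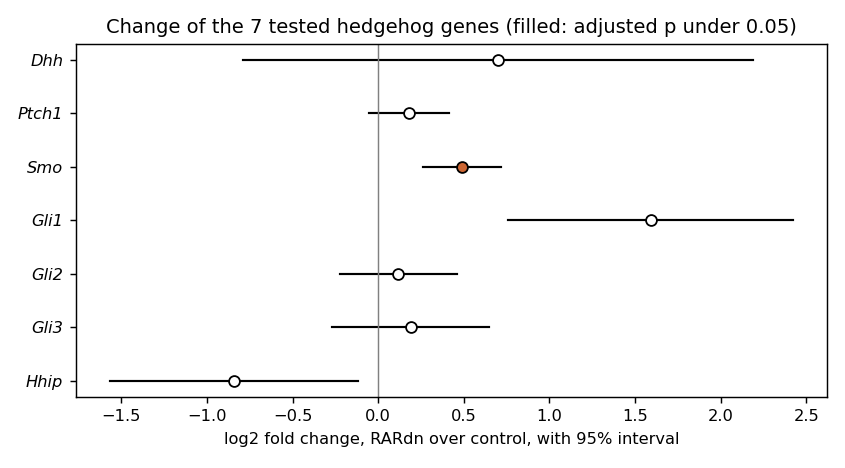
Fitted log2 fold change of RARdn over control for the 7 tested Hedgehog genes, with 95% intervals from edgeR's fit on 3 against 3 libraries. Smo, the filled point, passed an adjusted p of 0.05. Gli1 has the largest change, and Hhip alone lies below 0.

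Levels between genes were compared per kilobase of exon. In controls the order was Smo (12.4 ± 0.687 CPM per kilobase, SD, n = 3), Ptch1 (2.51 ± 0.193), Gli2 (2.04 ± 0.205), Gli3 (1.503 ± 0.177), Gli1 (1.01 ± 0.575), Hhip (0.543 ± 0.152), Dhh (0.140 ± 0.132), Ihh (0.0387 ± 0.00484) and Shh at 0. Gli3 and Gli1, Gli1 and Hhip, and Dhh and Ihh overlapped over the 3 control libraries. In RARdn libraries Gli1 stood second, at 3.04 ± 0.749 CPM per kilobase, and its range overlapped those of Ptch1 (2.84 ± 0.208) and Gli2 (2.21 ± 0.337). Gli2 and Gli3 (1.71 ± 0.448), apart in controls, overlapped as well, as did Ihh and Shh. Smo was first in both groups, at 17.4 ± 1.23 in RARdn. Hhip and Dhh, apart in controls, overlapped in RARdn libraries (0.306 ± 0.112 and 0.226 ± 0.0248).

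Ratios of 2 genes within a library do not depend on library scaling, and 8 were computed after the values above had been seen. Gli1 per Ptch1 count was 0.242, 0.102 and 0.0870 in controls 1 to 3, against 0.377, 0.505 and 0.265 in RARdn 1 to 3. Gli1 per Gli3 count was 0.516, 0.309 and 0.203 in controls and 0.825, 0.994 and 0.980 in RARdn libraries, and Gli1 per Gli2 count 0.355 ± 0.176 and 0.988 ± 0.112 (SD, n = 3). Gli1 counts thus came close to those of Gli2 and Gli3 in every RARdn library and in no control. Hhip per Gli1 count was 0.734, 0.864 and 1.81 in controls and 0.168, 0.0985 and 0.344 in RARdn libraries. These 4 ratios and Gli1 per Smo count did not overlap between groups (each p = 0.1 by 2-sided exact permutation, the lowest value this design can give, and 0.16 adjusted over the 8). Hhip per Ptch1 count overlapped (exact p = 0.2, 0.229 adjusted), as did Gli2 per Gli3 (exact p = 0.9).

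Since pancreatic mesenchyme is known as the responding tissue, each gene was also set against the summed counts of the 19 mesenchyme markers in its own library. Per 1000 such counts, Gli1 was at 0.964, 0.612 and 0.400 in controls 1 to 3, against 1.51, 1.59 and 1.04 in RARdn 1 to 3, a 2.09-fold higher mean without overlap. Hhip was at 0.707, 0.529 and 0.724 in controls and at 0.253, 0.157 and 0.359 in RARdn libraries, 0.392 of the control mean and also without overlap. Smo was at 9.44 ± 0.997 and 8.94 ± 0.599 (SD, n = 3) and Ptch1 at 4.86 ± 1.03 and 3.69 ± 0.476, both overlapping. Gli2 was lower, at 1.89 ± 0.113 and 1.39 ± 0.203, and so was Gli3, at 1.94 ± 0.0615 and 1.497 ± 0.391, neither overlapping. The marker sum itself was higher in every RARdn library, so a gene that did not change falls on this measure. How many of all genes separate on it was not counted. The fit with libraries scaled to the markers called 8798 of 19070 genes lower. A downward separation, as for Hhip, thus adds little here. With the libraries scaled to the markers, the median log2 fold change of all genes was -0.57, against -0.44 for Gli2 and -0.37 for Gli3. The lower Gli2 and Gli3 ratios are thus no fall beyond that of the median gene. The exact permutation p was 0.1 for Gli1, Gli2, Gli3 and Hhip, the smallest possible, and 0.18 adjusted over the 9 genes. Shh had the same 2 values, on 0 counts in each control and 1 count in each RARdn library. The adjusted value of the other genes depends on Shh being among them. Against Pdgfra and Pdgfrb alone, Gli1 was 2.43-fold higher and still apart, while Hhip, Gli2 and Gli3 overlapped (0.469, 0.868 and 0.902 of the control mean).

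**Figure D3:**
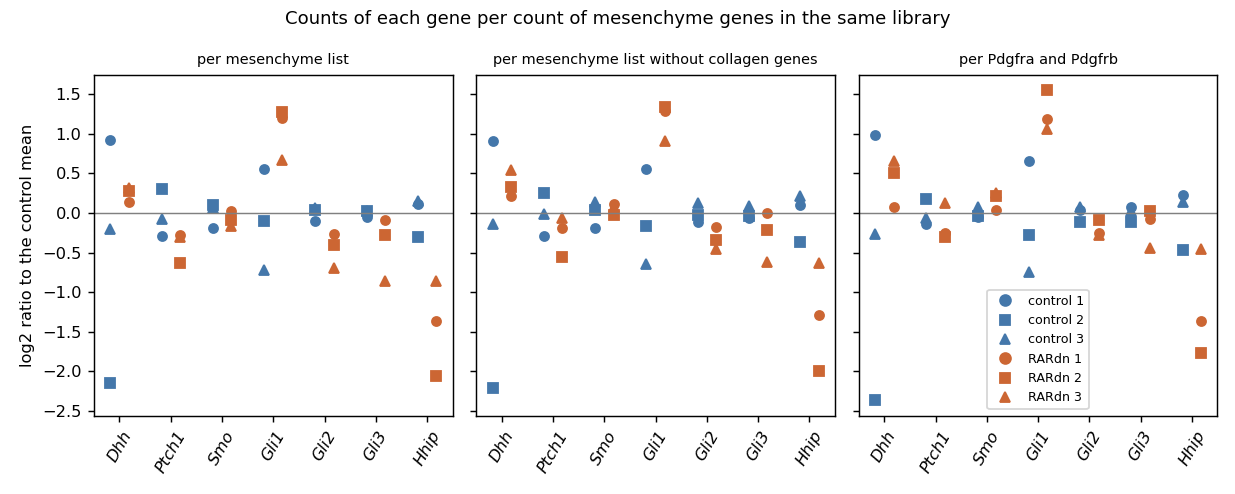
Counts of each gene per count of mesenchyme genes in the same library, as log2 of the ratio to the control mean, for 3 choices of mesenchyme genes. Symbols are single libraries, as in the key. Gli1 lies above and Hhip below the controls with the full list, and Smo lies around 0.

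The other genes of the pathway were read in 4 lists. Among 13 genes for ligand release and surface co-receptors, all tested, 1 rose and none fell, where 4.02% of all tested genes were called. Of the 13, 10 were above 0, with a median log2 fold change of 0.20. With scaling to the mesenchyme markers the median was -0.34, against -0.57 for all genes. The called gene was Boc, a co-receptor that helps ligand to bind Ptch1 (chromosome 16, 44485049 to 44558897). It was at 24.4, 19.5 and 21.0 CPM in controls 1 to 3, against 36.2, 41.6 and 28.9 CPM in RARdn 1 to 3, with no overlap. Boc rose 1.65-fold (log2 0.72, SE 0.15, edgeR adjusted p = 0.0396) and was called in 10 of 20 alternatives. Its call ended when control 1, control 2, control 3 or RARdn 2 was left out (log2 0.81, 0.65, 0.70 and 0.60, adjusted p = 0.0600, 0.162, 0.134 and 0.102), with the Xist term (0.87, 0.219) and with scaling to the mesenchyme markers (log2 0.16, 0.508). Gpc3, a glypican that binds ligand and the most abundant gene of the list, was at 615 ± 24.3 and 520 ± 148 CPM (SD, n = 3, log2 -0.24, edgeR adjusted p = 0.530). The co-receptors Cdon and Gas1 were at log2 0.10 and 0.15.

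Of 19 genes for transduction inside the cell, edgeR called none, and neither did DESeq2 or limma-voom, while 5 had an unadjusted p under 0.05, all above 0. That is 26.3% of the list, against 22.2% of all tested genes in either direction and 12% above 0. In this list 18 of 19 lay above 0, with a median of 0.12 (-0.45 with scaling to the mesenchyme markers, against -0.57 for all genes). The most abundant were Csnk1a1, a casein kinase gene (239 ± 8.70 and 259 ± 11.1 CPM, SD, n = 3, edgeR adjusted p = 0.595), and Prkar1a, a regulatory subunit gene of protein kinase A (213 ± 4.03 and 242 ± 8.71 CPM, adjusted p = 0.365). Sufu, which restrains the Gli proteins, had the lowest p and was chosen after its values were seen (22.8 ± 0.960 and 29.0 ± 1.82 CPM, log2 0.35, adjusted p = 0.0882).

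The 18 genes of transport in the primary cilium were spread around 0, with 10 above, 8 below and a median of 0.06. With scaling to the mesenchyme markers the median was -0.50, against -0.57 for all genes. Among them 1 fell and none rose, where 4.02% of all tested genes were called and 2.65% called lower. It was Dync2h1, the motor that carries cargo back from the tip of the cilium (chromosome 9, 6928503 to 7184446), at 30.6, 33.5 and 28.0 CPM in controls 1 to 3, against 17.8, 15.6 and 14.02 CPM in RARdn 1 to 3. All RARdn values lay below all controls (log2 -0.95, SE 0.13, edgeR adjusted p = 0.0117). Dync2h1 was called in 15 of 20 alternatives. The call ended when control 2 (log2 -0.89, adjusted p = 0.0562) or RARdn 2 (-0.94, 0.0530) was left out, with the Xist term (-1.08, 0.0642), without TMM (-0.89, 0.0581) or with the libraries without high Xist alone (-1.07, 0.190). Ift172, a transport protein gene and the most abundant of the list, was at 47.5 ± 0.847 and 41.1 ± 4.06 CPM (SD, n = 3, log2 -0.21, edgeR adjusted p = 0.259).

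Genes described as Hedgehog targets in other tissues lay mostly above 0, without a call. Of 22 such genes 19 were tested, and the forkhead genes Foxl1, Foxd1 and Foxd2 had too few counts. Of the 19, edgeR and limma-voom called none, and DESeq2 called 5 (Nr2f1, Nr2f2, Osr1, Sfrp1 and Snai1, all higher). Over all 19070 tested genes DESeq2 called 1946, 973 of them higher. Of the target genes 9 had an unadjusted p under 0.05, all above 0 (22.2% of all tested genes had such a p in either direction, 12% above 0). In all 17 were above 0, with a median of 0.46, close to the 0.42 of the mesenchyme markers. With scaling to those markers the median was -0.08, against -0.57 for all genes. That scaling shifts every gene by about the same amount. The place of a list relative to the median gene under it is thus no separate result. The most abundant were Spp1, also a duct marker (296 ± 6.80 and 421 ± 105 CPM, SD, n = 3, edgeR adjusted p = 0.167), and the cyclin gene Ccnd2 (243 ± 13.1 and 329 ± 85.1 CPM, adjusted p = 0.205). The mesenchymal target Foxf1, chosen after its values were seen, was at 3.35 ± 1.77 and 4.48 ± 1.01 CPM (log2 0.43, adjusted p = 0.520). Among the smooth muscle and pericyte markers, 5 of 10 were called higher, among them Acta2 (43.9 ± 13.03 and 98.9 ± 30.8 CPM, log2 1.17, adjusted p = 0.0431) and Rgs5 (46.2 ± 17.4 and 100.5 ± 5.22 CPM, log2 1.12, adjusted p = 0.0335). Of the 10 markers 7 did not overlap between the groups, and Cspg4, Tagln and Myocd did. Over all tested genes 1.37% were called higher, and in 13.9% every RARdn library lay above every control. The part of these cells in the Gli1 and Boc values was not tested.

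**Figure D4:**
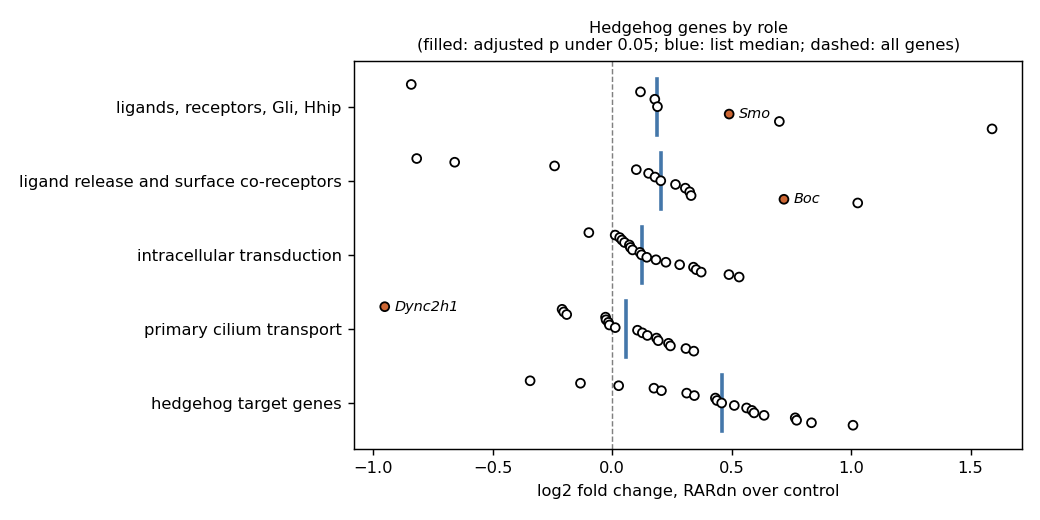
Fitted log2 fold change (RARdn over control) of each tested gene, by role. Filled points passed an adjusted p of 0.05 (Smo, Boc and Dync2h1), blue bars are list medians, and the dashed line is the median of all genes. The list of target genes has the highest median, 0.46.

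Genes whose 6 library values ran most like those of Ptch1, Gli1 and Hhip were found among 11117 or 11118 genes whose mean level reached 5 CPM. The measure was the root mean square difference of log2 levels relative to the control mean. Closest to Ptch1 were Clmn, Vps18 and Zfp280b (0.0189, 0.0309 and 0.0318). Closest to Gli1 were Ntrk3, a neurotrophin receptor gene, Pi15 and Lyz2, a lysozyme gene of macrophages (0.162, 0.256 and 0.341). Pi15 was at 22.7, 13.2 and 13.9 CPM in controls and at 44.1, 50.7 and 33.7 CPM in RARdn libraries, with control 1 again the highest control and RARdn 2 the highest of all. Closest to Hhip were Gpatch4, the glycolytic enzyme gene Eno1 and Rps4l (0.222, 0.230 and 0.232), each lowest in RARdn 2.

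**Figure D5:**
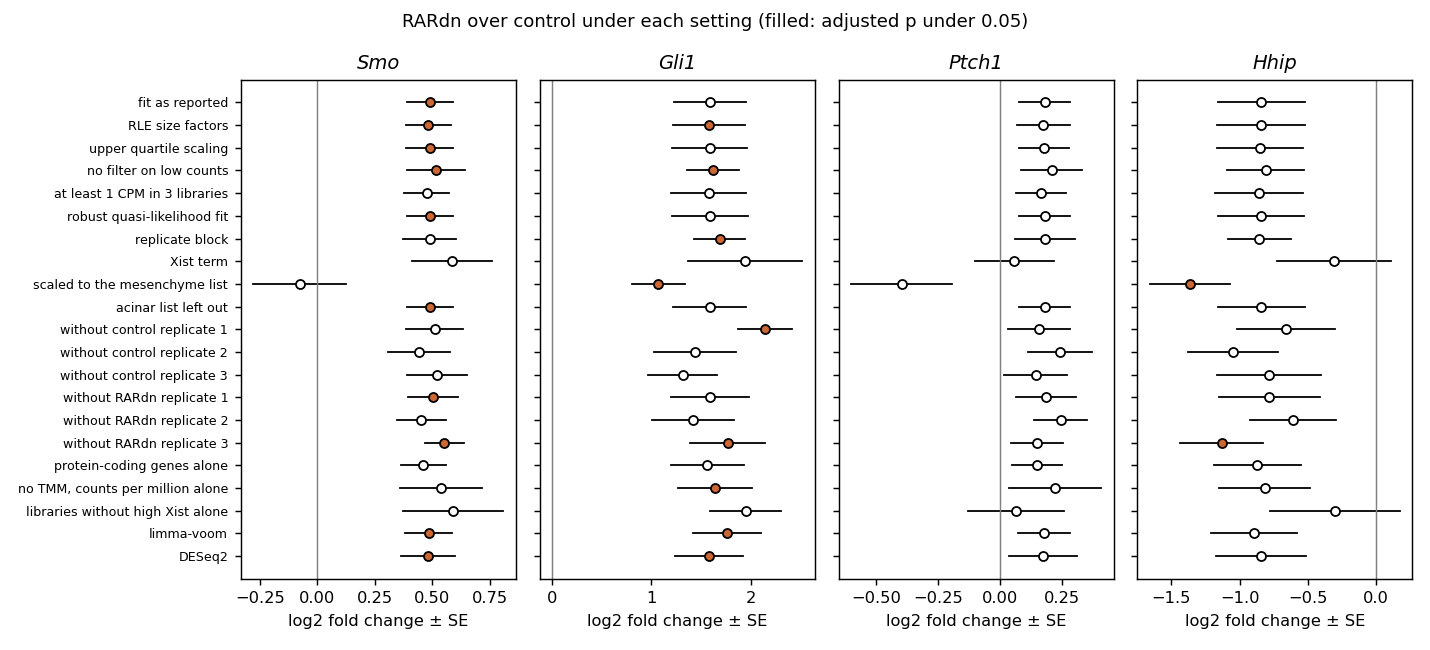
Log2 fold change of RARdn over control with its SE for Smo, Gli1, Ptch1 and Hhip in the fit as reported and under 20 alternatives, filled where the adjusted p was under 0.05. Gli1 is above 0 in all and called in 9, and Hhip is below 0 in all. Smo and Ptch1 turn below 0 with scaling to the mesenchyme list, where the median of all genes is -0.57.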

How the data were processed

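RNA sequencing of whole e16.5 pancreas gave 1 count table per sample, 3 control and 3 RARdn. What the authors deposited are read counts by gene symbol, not normalized. The submitters' processing notes name HISAT2, HTSeq, cutadapt, FastQC, DESeq2 and bedtools and the builds mm10 and GRCm38. Their versions, annotation and strand setting: not given in the sources used here. The 5 summary lines entered neither library sizes nor tests. They held 30.5% to 31.5% of all reads in controls and 25.4% to 28.3% in RARdn libraries.

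The whole table went through edgeR 4.0.16 (R 4.3.3): filterByExpr, TMM scaling, then glmQLFit and the 2-sided glmQLFTest on genotype alone, with Benjamini-Hochberg adjustment over all genes tested. SE was worked back from the F statistic, and 95% intervals from SE and the total degrees of freedom of the test, prior and residual together. The script was tested on simulated data. DESeq2 1.42.0 and limma 3.58.1 (voom) were alternatives. Labels do not say whether samples came from separate litters, and the p-values rest on sample spread that may be partly technical. Positions and exon lengths came from GENCODE M21 (GRCm38), promoters from RefSeq (GRCm38.p6). Counting intervals and floors cover counting error only.

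Members and lists were chosen with earlier results of these data known. The rule for names was: the 9 genes, from each of 4 pathway lists up to 4 called genes by lowest p and, where fewer than 2 were called, the most abundant ones to make 2, the 2 most abundant of each cell type list (here under the summed level of the list), and the 3 genes most like Ptch1, Gli1 and Hhip (pseudocount 0.5 CPM). Alternatives were other scalings, filters and tools, a replicate block, a term for libraries with over 1000 Xist counts, and leaving out each library. Chosen after seeing the data were protein-coding genes alone, no TMM, and the libraries without high Xist alone. Values of 1 gene, also used in 1 of the 8 ratios, are not reported here.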

Additional observations from a re-analysis of the deposited data

How the results depend on the processing

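Of 20 alternatives to each fit, 17 were planned. The count of called genes, 767 as reported (34.2% of them higher), was 2346 without a filter on low counts, 217 with at least 1 CPM in 3 libraries, 61 with the Xist term (where control 2 is the only control without high Xist), 9038 with scaling to the mesenchyme list (240 higher and 8798 lower, median of all genes -0.57), 111 with protein-coding genes alone, 474 without TMM, 21 with the libraries without high Xist alone (control 2 being the lone control, assumed to vary like the other group), 1946 with DESeq2, and 100 to 2980 with 1 library left out (100 without control 2, 130 without RARdn 2, 297 without control 3, 343 without control 1 and 2980 without RARdn 3). Of the Hedgehog genes 2 were called with RLE scaling, no filter, scaling to the mesenchyme list, limma-voom and DESeq2, 0 with at least 1 CPM in 3 libraries, the Xist term, protein-coding genes alone and the libraries without high Xist alone, and 0 to 3 with 1 library left out (3 without RARdn 3). Of the co-receptor and release genes 2 were called without a filter, 3 with scaling to the mesenchyme list, 0 with at least 1 CPM, the Xist term, protein-coding genes alone, no TMM and low Xist alone, and 0 to 3 with 1 library left out. Of the transduction genes 1 was called without a filter, 5 with scaling to the mesenchyme list and 0 to 3 with 1 library left out. Of the cilium genes 9 were called with scaling to the mesenchyme list, 0 with the Xist term, no TMM and low Xist alone, and 0 to 2 with 1 library left out. Of the target genes 4 were called without a filter, 2 with the replicate block, 3 (all lower) with scaling to the mesenchyme list, 5 with DESeq2, and 0 to 6 with 1 library left out. Scaling to the mesenchyme list reversed Ptch1 (log2 -0.40), Smo (-0.078), Gli2 (-0.44) and Gli3 (-0.37), by its own construction, since it moved the median of all genes to -0.57.

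Per mesenchyme count, the log2 ratio of Smo, -0.078 as reported, was 0.053 without collagen genes and 0.18 against Pdgfra and Pdgfrb. That of Ptch1 was -0.40 and -0.13 against Pdgfra and Pdgfrb, and that of Gli2 -0.45 and -0.20. With 1 library left out, that of Dhh ranged from -0.23 (without control 2) to 1.11. The cause of these differences was not tested. Same-numbered samples deviated together little (correlations 0.0129, -0.0135 and 0.126), and pairs of unlike number lay between -0.0888 and 0.0920. These values show no clear pairing by number. They cannot exclude shared litters, which the labels do not give. With the replicate block 817 genes were called, Smo was at log2 0.49 (adjusted p = 0.0559) and Gli1 at 1.69 (adjusted p = 0.0194). Depth limits Shh and Ihh, at no more than 14 counts in any library, and Dhh, at 5 counts in control 2.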
